A study of Mus musculus with 48 samples.

Results

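The distal Vk region of the mouse is the stretch of the immunoglobulin kappa light chain locus (Igk) that lies farthest from the Jk segments. Its members were chosen by position alone: every junction of the 12 libraries with an Igk bait that maps to chr6:67505630-68555000 (mm9), out of those in the whole Vk region, chr6:67505630-70654171. This gave 118408 distal junctions among 508158 Vk junctions and 568001 junctions in all. The stretch spans 1.05 of 3.15 Mb, its inner end lies 2.12 Mb from Igkj5 and its far end 3.17 Mb. It holds 27 of the 99 annotated Vk genes, 23 on the plus strand and 4 on the minus strand, whereas the remaining 72 genes divide into 15 on the plus and 57 on the minus strand.

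A light chain gene is assembled when the RAG1/RAG2 recombinase cuts a V and a J segment at their recombination signals (a heptamer and a nonamer held apart by a spacer) and the ends are joined. Vk segments carry the short-spacer signal and Jk segments the long-spacer one. A Vk gene in the same orientation as the Jk genes joins by deleting the DNA between them, and a Vk gene in the opposite orientation joins by inverting it. Wapl releases cohesin, the ring that extrudes chromatin loops, from DNA, and cells that lose Wapl form longer loops. The distal Vk genes are the ones that must cross the longest distance to reach the Jk genes.

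The libraries were made by high-throughput genome-wide translocation sequencing, which reads outward from a fixed break (the bait) into whatever DNA was joined to it (the prey). Each list line is one bait to prey junction, and the value used throughout is a share of junctions. The bait was the coding end of Igkj5: 97.2% of the bait ends lay within 60 bases of the Igkj5 start. The coding end of a plus-strand Vk gene joined by deletion is therefore read as a prey on the minus strand, and that of a minus-strand gene joined by inversion as a prey on the plus strand. The strand alone does not show which gene a prey lies in.

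Of the 48 samples of the series, 4 groups were used. The v-Abl cycling group (n = 4) is a pro-B line of the 129sv strain transformed by v-Abl, with the Emu-Bcl2 transgene and no RAG2, given RAG2 by retrovirus. Despite its name, its treatment field records 3 uM of the Abl inhibitor STI-571, which stops such cells from dividing, for 4 days. The BM PreB group (n = 3) is bone marrow pre-B cells of wild-type 129 mice, whose label also carries a line on STI-571 that the text describing the isolation does not. Both Wapl-degron groups are a v-Abl pro-B line of the B6 strain with Wapl-degron, OsTIR1, Single Igh, Emu-Bcl2 and no RAG1, given RAG1/2 by retrovirus. The untreated group (n = 3) had 3 uM STI-571 for 4 days. The IAADox group (n = 2) had STI-571 for 1 day, then 150 uM IAA (an auxin, which with OsTIR1 leads to destruction of degron-tagged proteins), STI-571 and 2 mg/mL Dox for 3 days. Each v-Abl group is thus one transformed line with RAG supplied from outside. The labels do not say whether libraries came from separate cultures or animals, so the p-values measure only the spread between these libraries, which may be technical. The lists hold no expression values, so cell identity and loss of Wapl could not be checked here.

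Depth differed widely. The v-Abl cycling lists held 584 to 3973 Vk junctions, BM PreB 19894 to 30742, untreated 117353 to 136877 and IAADox 16607 and 25540. The Vk region took 30.03 to 72.5% of all junctions in v-Abl cycling, 95.1 to 95.4% in BM PreB, 89.2 to 90.4% in untreated and 81.9 and 86.0% in IAADox libraries. The 2 shallowest libraries, v-Abl cycling 2 and 4, were the only pair of one group whose counts per segment agreed within sampling noise (chi-square p = 0.104 over 39 segments, a test on reads). They shared no read names and 2.35% of reads with the same ends, the lowest share within any group, and were kept as separate samples. Counted as 1 sample they left the distal share difference below at 11.3 points. The groups v-Abl cycling and BM PreB came from different sequencing runs, as did BM PreB and the Wapl-degron line, so run and group cannot be told apart in those comparisons; the Wapl-degron libraries shared 1 run.

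The recombination signals of the genes the results turn on, read from mm9, are given first. In each line the last 18 coding bases come first, the capitals mark the heptamer and then the nonamer, and the lower case run between them is the spacer. Igkv1-135 and Igkv16-104 rose with IAA/Dox treatment. Igkv2-137 did not pass the test there but was higher in BM PreB than in v-Abl cycling and untreated cells. Igkv17-127 and Igkv17-121 fell with IAA/Dox treatment but were higher in BM PreB than in v-Abl cycling cells. Igkv14-111 did not pass the test with IAA/Dox treatment, and the seventh is a site with no annotated gene.
Igkv1-135: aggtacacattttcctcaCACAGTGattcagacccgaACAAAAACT
Igkv16-104: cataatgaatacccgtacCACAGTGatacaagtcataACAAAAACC
Igkv2-137: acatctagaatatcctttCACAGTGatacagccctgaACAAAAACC
Igkv17-127: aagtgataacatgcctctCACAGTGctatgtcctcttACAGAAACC
Igkv17-121: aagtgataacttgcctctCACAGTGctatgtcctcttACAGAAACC
Igkv14-111: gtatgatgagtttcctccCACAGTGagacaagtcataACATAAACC
Unannotated site 68425090: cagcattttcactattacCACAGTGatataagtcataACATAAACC
They lie on the plus strand at chr6:67560485-67560530, chr6:68376049-68376094, chr6:67506193-67506238, chr6:67811636-67811681, chr6:67987295-67987340, chr6:68206846-68206891 and chr6:68425078-68425123, in that order. All 7 have the heptamer CACAGTG, and only Igkv16-104 and Igkv2-137 also have the nonamer ACAAAAACC. Signals of Igkv17-127 and Igkv17-121 differ in no base, and the change between these lines lies in the coding bases. The Jk signal they were joined to, with nonamer and heptamer in capitals and the start of Igkj5 after them, lies at chr6:70673841-70673897.
Igkj5: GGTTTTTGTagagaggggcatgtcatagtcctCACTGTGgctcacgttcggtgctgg

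Prey ends fall in tight clusters at the coding ends of V segments. Junctions of either strand with gaps of up to 20 bases were joined into a segment, and a segment within 20 bases of a Vk gene took its name. Of 168 distal segments, 54 had at least 10 junctions, 30 in a gene and 24 not. All 27 distal genes had a junction and 26 reached 10, the exception being Igkv1-131 with 4. The exact heptamer CACAGTG stood next to 24 of the 30 gene segments (80%) and 11 of the 24 without a gene (45.8%), against 0.252% of plus-strand and 0.188% of minus-strand positions of the same stretch. The match describes letters at the prey end and says nothing of cutting. The RefSeq table of a later build (GRCm38.p6) lists 25 V segments and 21 V pseudogenes between Igkv2-137 and Igkv12-98. Segments in an annotated gene took 90.7% ± 2.13 (SD, n = 4) of the distal junctions in v-Abl cycling, 93.4% ± 0.873 (n = 3) in BM PreB, 95.5% ± 0.161 (n = 3) in untreated and 95.8% ± 0.309 (n = 2) in IAADox libraries.

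The distal Vk region was used most in cells treated with IAA/Dox and least in v-Abl cycling cells. It took 41.5% and 40.2% of the Vk junctions in the IAADox libraries and 21.9%, 20.8% and 20.03% in untreated libraries of the same line. The BM PreB libraries lay between, at 26.6%, 25.9% and 26.5%, and v-Abl cycling libraries gave 16.2%, 13.9%, 14.5% and 14.6%. No library of one group overlapped another group. Counting error was small beside these gaps even at the lowest depth, where the Wilson 95% interval of v-Abl cycling 2 ran from 11.3 to 16.9%; reads amplified by PCR are not independent molecules, so the interval covers counting error only.

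**Figure D1:**
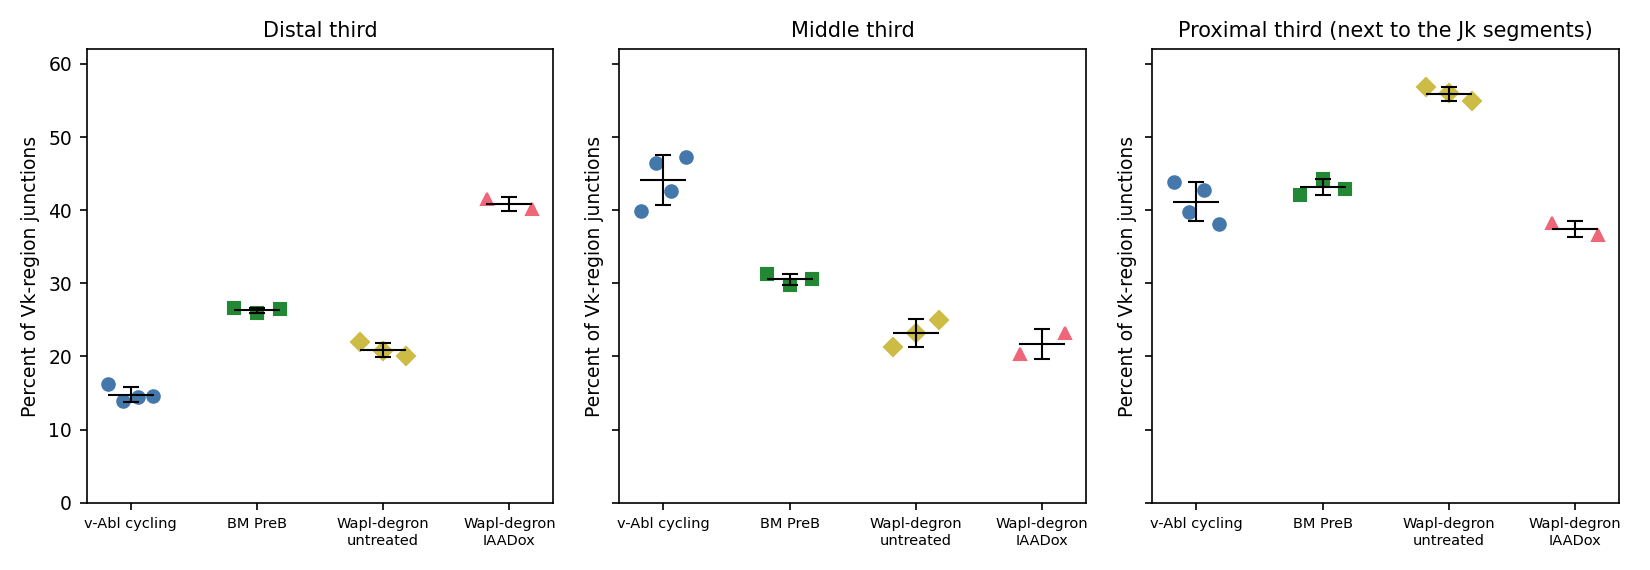
Percent of Vk junctions (vertical axis) in each of the 3 equal stretches of the Vk region, 1 panel each; a point is a library, and the horizontal line and error bar are the group mean and SD. The 2 IAADox libraries lie at 41.5 and 40.2% in the distal Vk region, above all others, and at 38.2 and 36.6% in the stretch next to the Jk segments, where untreated libraries lie at 54.9 to 56.8%.

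Shares add up to 100, so a higher distal share needs a lower share elsewhere. Against untreated cells, IAADox cells had a distal share of 40.8% ± 0.918 (n = 2) in place of 20.9% ± 0.966 (n = 3), a difference of 19.9 points and a ratio of 1.95 (exact two-sided permutation p = 0.2, the smallest that 2 against 3 libraries allow; adjusted p = 0.25 over 10 tests). The counterpart was the stretch next to the Jk segments, at 37.4% ± 1.12 against 55.9% ± 0.945, while the middle stretch overlapped between groups (20.3 and 23.2% against 21.2 to 25.05%). Between BM PreB and v-Abl cycling cells the distal share differed by 11.5 points (26.3% ± 0.354, n = 3, against 14.8% ± 0.984, n = 4; ratio 1.78; exact two-sided permutation p = 0.0571, the least that 3 against 4 libraries can give, and 0.167 adjusted). Here the counterpart was the middle stretch, at 30.6% ± 0.755 against 44.1% ± 3.40, and the stretch next to the Jk segments overlapped. BM PreB exceeded the untreated Wapl-degron line by 5.39 points (ratio 1.26; exact two-sided permutation p = 0.1, again the least possible here, and 0.167 adjusted). That pair shares its libraries with both other comparisons, and strain, cell source and run differ along with it.

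Lines of the same library with the same prey position, prey strand and bait ends were taken as a distinct junction, whatever bases were inserted. There were 1.53 to 3.67 lines per distinct junction in v-Abl cycling, 8.18 to 10.9 in BM PreB, 15.6 to 16.8 in untreated and 8.30 and 10.6 in IAADox libraries. Separate joining events with the same ends are merged too, so smaller sizes need not reflect removed repeats alone. Counting each distinct junction once kept every direction and shrank the sizes. The distal share was then 33.6% in IAADox against 24.3% in untreated cells (difference 9.32 points). The BM PreB value of 25.5% stood against 17.3% in v-Abl cycling (8.24 points) and lay 1.20 points above untreated. Leaving out Igkv1-135, an alternative chosen after seeing the data, gave differences of 15.5, 10.9 and 4.71 points in the same order.

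Distal junctions were read almost wholly on the minus prey strand, that of deletional joining. Of the 118408 distal junctions 117703 were on the minus prey strand and 705 on the plus strand. The plus-strand share was 2.33, 0, 1.04 and 0% in the 4 v-Abl cycling libraries, 1.38, 1.13 and 1.01% in BM PreB, 0.416, 0.432 and 0.366% in untreated and 0.770 and 0.750% in IAADox libraries. In the rest of the Vk region the plus-strand share lay between 82.7 and 90.5%. Within libraries the distal value was lower in 12 of 12, with a mean difference of -85.7 points (SD 2.72; exact sign-flip permutation p = 0.000488, the smallest possible; adjusted p = 0.00488). The prey strand follows the orientation of the genes, with 23 of 27 distal genes on the plus strand and 57 of the other 72 on the minus strand. The sign of the difference was thus fixed by the genome beforehand, and libraries of one line are not independent. The p-value therefore adds nothing to the annotation.

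**Figure D2:**
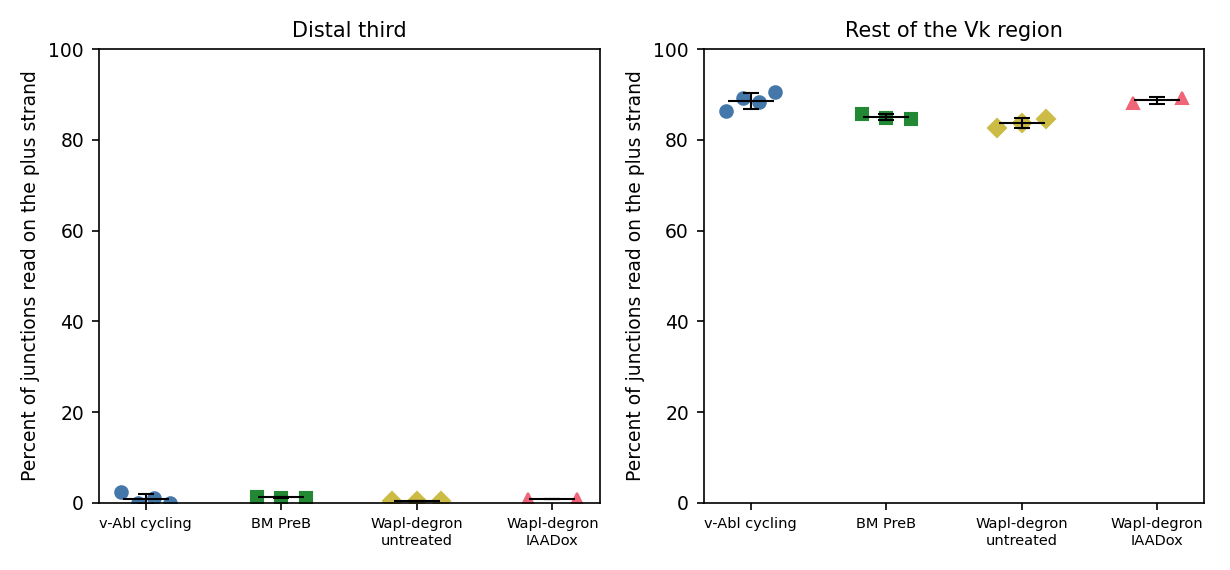
Percent of junctions on the plus prey strand (vertical axis) in the distal Vk region and in the rest of the Vk region, in a panel each; a point is a library, and the line and error bar are the group mean and SD. Distal values lie between 0 and 2.33%, and the rest between 82.7 and 90.5%.

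The few plus-strand distal junctions fell into 4 classes by place. The minus-strand genes took 345 of the 705 (48.9%), on the prey strand of inversional joining. Among them Igkv9-124, with 211 junctions, holds the same 52 bases shortly before the joining end as the plus-strand gene Igkv9-129. Reads could be exchanged between these genes, which was not tested. A further 213 of the 705 (30.2%) lay in a plus-strand gene, most of them in the segment at its coding end. In segments of at least 10 junctions inside the annotated span of such a gene, away from that end, lay 51 (7.23%). The other 96 (13.6%) lay in no gene. The plus-strand share of distal junctions was higher in IAADox than in untreated libraries by 0.355 points (exact permutation p = 0.2, the smallest possible), higher in BM PreB than in v-Abl cycling by 0.332 points (p = 0.571, exact permutation test; libraries overlapped; 0.0513 without v-Abl cycling 2 or 4, 0.828 without 1 and 1.28 with distinct junctions) and higher in BM PreB than in untreated by 0.771 points (p = 0.1, exact, the smallest possible). The last of these turned to -0.548 points when distinct junctions were counted once. Since 2 of the v-Abl cycling libraries had 81 and 99 distal junctions, a count of 0 there allows a share of up to 3.70 and 3.03%.

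Joints of the distal Vk region had lost few bases. The median loss was 1 base at the Vk end and 1 base at the Jk end in every group, with overlapping bases counted as kept at both ends. Inserted bases, found at neither end in the genome, stood in 12.3% ± 0.436 of BM PreB distal joints, 15.0% ± 1.15 of untreated, 17.4% ± 3.70 of IAADox and 26.6% ± 7.96 of v-Abl cycling joints. Joints without inserted or shared bases made up 34.6% of distal and 42.9% of other Vk joints in BM PreB, 29.0 and 35.8% in untreated, 30.3 and 35.1% in IAADox and 20.1 and 27.3% in v-Abl cycling libraries. With distinct junctions counted once, inserted bases stood in 22.4% of BM PreB, 33.2% of untreated, 31.7% of IAADox and 30.3% of v-Abl cycling distal joints, so the order of the v-Abl groups was not kept. These shares were not tested. The most frequent joints of 4 much-used genes, picked after their values were seen, show what the reads hold, from Vk into Igkj5; capitals mark bases where the alignments to the 2 genomic ends overlap, which can run past the Vk coding end into its heptamer.
Igkv1-135: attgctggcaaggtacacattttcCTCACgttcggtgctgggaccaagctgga
Igkv14-111: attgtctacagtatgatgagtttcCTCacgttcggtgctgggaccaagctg
Igkv1-110: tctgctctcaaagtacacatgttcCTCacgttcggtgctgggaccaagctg
Igkv17-121: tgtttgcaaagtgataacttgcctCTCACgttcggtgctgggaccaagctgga
These single joints made up 26.6, 26.1, 20.7 and 31.1% of the lines of their genes. The joints of Igkv1-135 and Igkv14-111 appeared in 12 of 12 libraries and the other 2 in 10.

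The distal share was not spread evenly. Divided into 10 equal windows from the far end, IAADox libraries lay above all untreated libraries in 8 windows and below all of them in 1. The largest gap was in the farthest window (0 to 105 kb), at 9.05% of Vk junctions against 1.99%. Most of it was the single gene Igkv1-135, at a mean of 8.61% in IAADox and 1.44% in untreated libraries. The other annotated gene of that window, Igkv2-137, was not higher, at 0.185 against 0.290%. The windows toward the inner end, the eighth and the ninth, had the next largest gaps, at 3.68 against 1.20% and 4.42 against 1.26%. In the fifth window the order was the other way, at 2.08 against 2.63%. BM PreB libraries lay above all v-Abl cycling libraries in 8 windows as well, with the widest ratio in the window from 210 to 315 kb, at 2.76 against 0.488%, and below them in the ninth, at 1.57 against 2.57%.

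**Figure D3:**
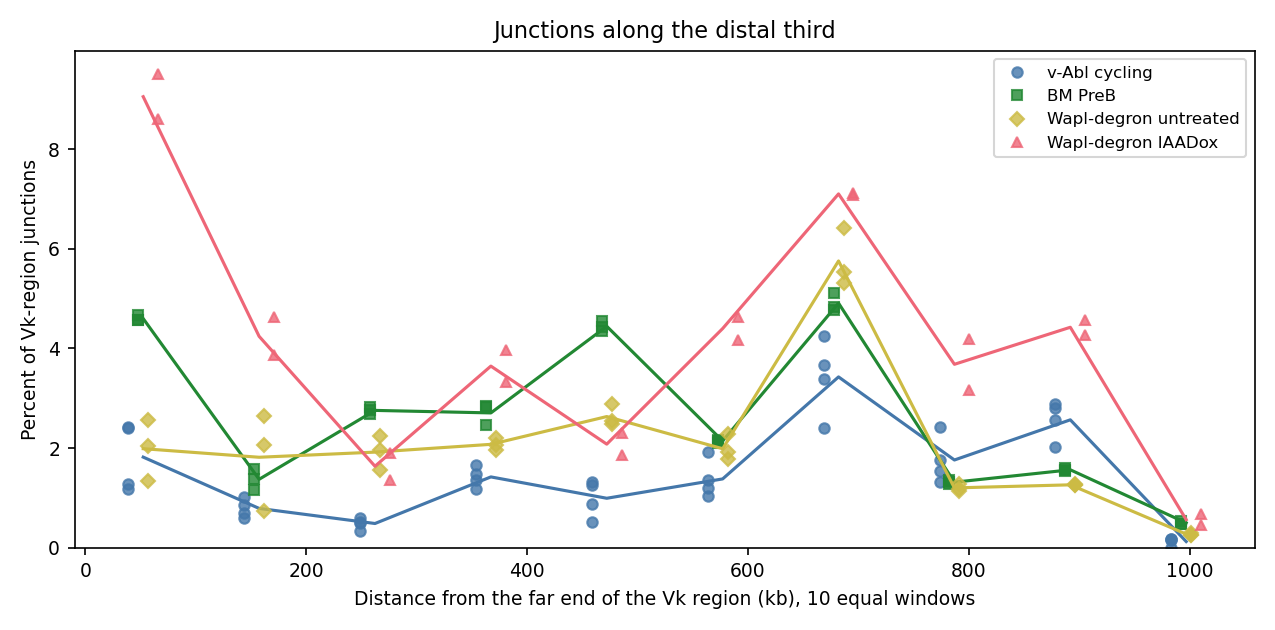
Mean percent of Vk junctions (vertical axis) in 10 windows of equal width, by distance in kb from the far end of the distal Vk region; each line joins the means of a group and the points, offset sideways by group, are libraries. IAADox stands highest in the first window, at a mean of 9.05%, against 1.99% in untreated, 4.60% in BM PreB and 1.82% in v-Abl cycling libraries. In that window Igkv1-135 alone took a mean of 8.61% in IAADox and 1.44% in untreated libraries.

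Use was concentrated in few genes, and in different ones by group. The 5 most used segments held 53.5% ± 2.90 of the distal junctions in IAADox, 42.9% ± 6.46 in untreated, 37.1% ± 1.07 in BM PreB and 51.1% ± 2.26 in v-Abl cycling libraries. They were Igkv1-135, Igkv1-110, Igkv1-117, Igkv2-109 and Igkv16-104 in IAADox cells, and Igkv14-111, Igkv17-121, Igkv2-112, Igkv1-117 and Igkv1-110 in untreated cells. In BM PreB cells they were Igkv1-135, Igkv14-111, Igkv17-121, Igkv17-127 and Igkv2-137. In v-Abl cycling cells they were Igkv14-111, Igkv15-103, Igkv1-135, Igkv2-109 and Igkv11-125.

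The comparison of IAADox with untreated cells asks what happens to Vk use when Wapl is depleted. In treated cells 5 of 7 tested genes of the Igkv1 family rose and 2 of 3 of the Igkv17 family fell. Counted over genes, 12 of 26 tested distal genes rose, 3 fell and 11 did not pass the test (limma on voom values, adjusted over the 157 segments of the whole Vk region, threshold 0.05). Over segments 20 of 52 distal ones passed in either direction, against 50.3% of all tested segments. Of these 17 rose, where 20.4% of all did, and 3 fell, where 29.9% of all did. The median log2 fold change was 0.69 over the distal segments and -0.16 over all segments. Called or not, 33 distal segments had libraries that did not overlap between groups, against 70.7% of all segments. Of the 33, 22 lay above and 11 below, against 26.1% and 44.6% of all.

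Igkv1-135, the next annotated gene inward from Igkv2-137 (chr6:67559739-67560502, plus strand), took 8.94 and 8.29% of Vk junctions in the IAADox libraries and 1.89, 1.48 and 0.945% in the untreated ones. Both treated libraries lay more than 4 times above the highest untreated one. The log2 fold change was 2.61 (SE 0.24, adjusted p = 4.83e-05). Igkv16-104 took 3.20 and 3.05% against 0.838, 0.882 and 0.850%, with no overlap (log2 fold change 1.86, adjusted p = 1.29e-05). Igkv2-109 took 2.72 and 3.75% against 0.861, 0.920 and 0.980% (1.83, adjusted p = 4.04e-05). With distinct junctions counted once the log2 fold changes were smaller but still called, at 1.52 for Igkv1-135, 1.11 for Igkv16-104 and 1.04 for Igkv2-109. Igkv1-135 lies near the far end, and the other 2 lie nearer the inner end.

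Within the Igkv1 family 5 of 7 tested genes rose and none fell, where 20.4% of all segments rose, and its summed share was 20.6% ± 0.592 against 6.76% ± 1.10. Igkv1-110 took 3.29 and 3.72% against 1.37, 1.43 and 1.57% (log2 fold change 1.28, adjusted p = 4.59e-05). Igkv1-117 took 3.20 and 3.53% against 1.35, 1.43 and 1.77% (1.18, adjusted p = 0.000312). Igkv1-133 took 2.56 and 1.91% against 1.11, 0.867 and 0.195% (1.88, adjusted p = 0.0453), and lost its call without either treated library. Igkv1-122 rose by less (0.78, adjusted p = 0.00499). Igkv1-132 missed the threshold at 0.97 (adjusted p = 0.106). With distinct junctions counted once Igkv1-110 was at 0.67, Igkv1-133 at 0.95 and Igkv15-103, outside the family, at 0.80, each still called. The quasi-binomial model left 2 of these 5 calls, Igkv1-135 and Igkv1-110, and Igkv1-133 was also not called with TMM scaling, all junctions as library size or at least 50 aligned prey bases.

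The Igkv17 family went the other way, with 2 of 3 tested genes lower, where 29.9% of all segments were. Igkv17-127 took 0.638 and 0.407% against 1.41, 1.31 and 1.17% (log2 fold change -1.38, adjusted p = 0.00142). Igkv17-121 took 0.843 and 0.630% against 1.63, 1.61 and 1.91% (-1.26, adjusted p = 0.00109). The 2 genes differ at 1 of 52 bases shortly before the joining end, so reads could be exchanged between them, although both moved the same way. Counting distinct junctions once left Igkv17-127 at -0.55, still called, and Igkv17-121 at -0.22 (adjusted p = 0.301), without a call. The remaining gene that fell was Igkv2-112, at 0.735 and 0.752% against 1.38, 1.51 and 1.89% (-1.08, adjusted p = 0.00588), and its call was lost without IAADox 2 and with distinct junctions.

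Igkv14-111, the most used distal gene of untreated cells, did not pass the test. It took 3.01 and 2.58% in IAADox and 2.51, 2.54 and 2.89% in untreated libraries, which overlapped (log2 fold change 0.06, SE 0.13, adjusted p = 0.72). None of the 4 tested Igkv9 genes passed in either direction, and their summed share was 0.635% against 0.561%. In the Igkv14 family 2 of 4 tested genes rose, where 20.4% of all segments did. The single genes Igkv11-125, Igkv15-103 and Igkv16-104 rose, with log2 fold changes of 0.86, 1.62 and 1.86, though Igkv11-125 was not called with distinct junctions (0.39, adjusted p = 0.0688), and Igkv12-98 did not pass. A quasi-binomial model per segment called 9 of the 52 distal segments, all higher (17.3%, against 19.1% of all segments), so none of the 3 falls was called there. None of the 3 tested minus-strand genes passed. Sites with no annotated gene rose as well. The one at 68425090 took 0.289 and 0.298% against 0.0533, 0.0575 and 0.0383% (2.58, adjusted p = 8.51e-05), and that at 68114918 took 0.458 and 0.407% against 0.115, 0.110 and 0.106% (1.96, adjusted p = 8.31e-05). With distinct junctions counted once 68114918 was at 1.34, still called, and no value was available for 68425090. The site at 68114918 holds the same 52 bases shortly before the joining end as the site at 68289988. The latter took 0.397 and 0.352% against 0.195, 0.193 and 0.196% (0.94, adjusted p = 0.00426) and also had no value with distinct junctions. Reads could be divided between these sites, so their separate values are uncertain.

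**Figure D4:**
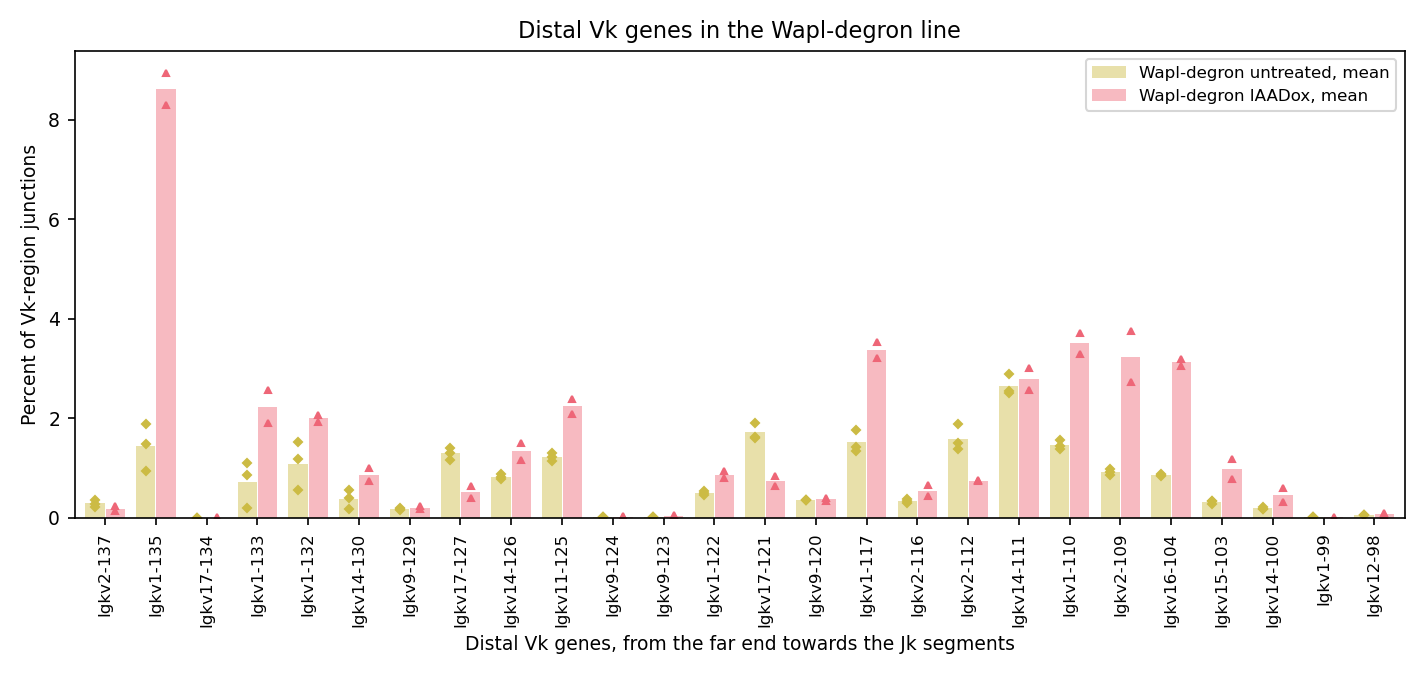
Percent of Vk junctions (vertical axis, linear) taken by the 26 distal genes with at least 10 junctions, from the far end inward, in untreated and IAADox Wapl-degron cells; a bar is a group mean and a point a library. Igkv1-135 lies at 8.94 and 8.29% in IAADox and at 0.945 to 1.89% in untreated libraries, while Igkv17-127 and Igkv17-121 lie lower in IAADox.

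The comparison of BM PreB with v-Abl cycling cells sets primary cells beside a transformed line of the same strain. Of 25 tested distal genes 14 rose in BM PreB, 1 fell and 10 did not pass. Over segments 17 of 35 passed in either direction, against 59.5% of all 126. Of these 15 were higher, where 41.3% of all were, and 2 lower, where 18.3% of all were, so the distal segments stood near the background in the upward direction. The median log2 fold change was 0.87 over distal and 0.56 over all segments. The libraries of 23 distal segments did not overlap between groups, against 64.3% of all, and 22 of these lay above and 1 below, against 50 and 14.3% of all.

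Several genes with few junctions in v-Abl cycling cells took larger shares in BM PreB cells. Igkv2-137, the gene at the far end of the locus, took 1.49, 1.69 and 1.59% in BM PreB and 0.377, 0.171, 0.101 and 0% in v-Abl cycling libraries (log2 fold change 3.15, adjusted p = 9.16e-10). Igkv9-129 had 438 junctions in BM PreB and none in the 4 v-Abl cycling libraries, at least 16.2-fold higher with the floor of 3 counts over the group. Igkv1-122 had 806 junctions against 1, a ratio of 88.9 with a counting interval of 15.9 to 3515. Igkv9-124 had 150 against 1 (ratio 16.5, interval 2.92 to 658) and Igkv12-98 had 122 against 1 (13.5, 2.37 to 536). These ratios cover counting error only. All 4 genes reached the minimum of 10 junctions only through the deeper BM PreB libraries, and are among the 14 called higher. A segment used mainly in the shallower v-Abl cycling libraries could less easily reach that minimum. In the quasi-binomial model, whose estimate has no bound where a group is at 0, neither Igkv9-129 nor Igkv1-122, Igkv9-124 and Igkv12-98 were called. With at least 100 aligned prey bases none of these 4 genes was called, and Igkv9-124 and Igkv12-98 changed sign. At that minimum v-Abl cycling libraries held 44 to 320 Vk junctions, and voom adds 0.5 to each count. An empty segment there can then exceed the BM PreB share, so these signs cannot be read as reversals. Igkv9-129 and Igkv9-124 hold the same 52 bases shortly before the joining end.

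Among genes used in both, Igkv17-127 took 1.63, 1.59 and 1.63% against 0.220, 0.514, 0.352 and 0.295% (log2 fold change 2.27, adjusted p = 9.07e-08), with no overlap. Igkv17-121 took 1.99, 1.89 and 2.07% against 0.503, 0.171, 0.478 and 0.442% (2.10, adjusted p = 2.52e-07). Igkv1-110 took 1.36, 1.56 and 1.60% against 0.126, 0.342, 0.403 and 0.295% (2.40, adjusted p = 6.95e-08). Igkv1-135 took 2.41, 2.41 and 2.49% against 1.67, 1.88, 1.08 and 0.884% (0.87, adjusted p = 0.000871), a smaller difference that lost its call without v-Abl cycling 3, as did Igkv12-98. The site at 67518923, among the 3 most used without a gene, took 0.653, 0.452 and 0.545% against 0.377, 0.342, 0.101 and 0.295% (1.12, adjusted p = 0.0176). It lost its call without v-Abl cycling 3, in the quasi-binomial model and with at least 50 aligned prey bases. With distinct junctions counted once Igkv1-110 was at 1.26, still called, though it, Igkv17-121 and the site at 67518923 were not called with at least 100 aligned prey bases, while Igkv17-127 (0.59, adjusted p = 0.0704), Igkv17-121 (0.47, adjusted p = 0.149) and Igkv1-135 were not called. By family 5 of 7 Igkv1, 3 of 4 Igkv9, 2 of 4 Igkv14 and 2 of 2 tested Igkv17 genes were higher, where 41.3% of all segments were.

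Igkv15-103 was the gene that went the other way, at 0.422, 0.475 and 0.358% in BM PreB and 1.16, 2.40, 1.16 and 2.21% in v-Abl cycling libraries (log2 fold change -1.66, adjusted p = 3.44e-10). All 4 v-Abl cycling libraries lay above all BM PreB libraries, and the difference was -0.88 with distinct junctions counted once, still called. Igkv14-111 did not pass the test, at 2.06, 2.31 and 2.05% against 2.23, 1.54, 3.02 and 2.50% (-0.25, SE 0.20, adjusted p = 0.28). With distinct junctions counted once it was called lower in the same limma test (-0.62, adjusted p = 0.00738). The aligned prey was longer in BM PreB (medians of 113 to 132 bases) than in v-Abl libraries (60 to 68). A minimum of 100 aligned prey bases leaves 6 to 51 distal junctions per v-Abl cycling library. The calls were then 3 higher and 12 lower (44.1%, against 35.0% of all segments), and the median log2 fold change of all segments was -0.54. Of the 17 called segments 4 changed sign (Igkv1-132, Igkv14-130, Igkv9-124 and Igkv12-98). Only 44 to 320 Vk junctions were left per v-Abl cycling library. There the 0.5 that voom adds to each count can lift an empty segment above its BM PreB share. These signs and lower calls therefore cannot be read as reversals. A quasi-binomial model called 8 higher and 3 lower (31.4%, against 34.1% of all segments), all junctions as library size 26 and 1 (77.1 against 61.9%), and a minimum of 1 junction per segment 15 and 24 (67.2 against 71.7%). With that minimum of 1 junction the median log2 fold change of all segments was -0.57. The added 0.5 weighs more in the shallower v-Abl cycling libraries, so directions of near-empty segments cannot be read. The part that read length plays in the other differences was not tested.

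The comparison of BM PreB with the untreated Wapl-degron line shares libraries with both others and is given for the level of each gene. In the Igkv9 family 4 of 4 tested genes were higher in BM PreB, with a summed share of 2.16% ± 0.199 against 0.561% ± 0.00808. Of 26 tested distal genes 11 were higher and 1 lower. Over segments 23 of 53 passed in either direction, against 53.9% of all 167. Of these 19 were higher and 4 lower, against 34.1 and 19.8% of all. Scaling by the trimmed mean of M values (TMM) gave 15 higher and 6 lower (39.6%, against 56.9% of all segments). The libraries of 30 distal segments did not overlap, against 70.1% of all, 20 of them above and 10 below, against 34.7 and 35.3% of all. Counting distinct junctions once gave 10 higher and 9 lower (44.2%, against 50.3% of all segments), and a quasi-binomial model 14 higher and none lower (26.4 against 32.3%). The median log2 fold change was 0.35 over distal and 0.10 over all segments.

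Igkv9-120 took 1.33, 1.46 and 1.16% in BM PreB and 0.348, 0.361 and 0.366% in untreated libraries (log2 fold change 1.88, adjusted p = 1.05e-06). Igkv9-129 took 0.613, 0.563 and 0.556% against 0.198, 0.170 and 0.160% (1.71, adjusted p = 9.03e-06). Igkv9-124, on the minus strand, took 0.271, 0.179 and 0.159% against 0.0124, 0.0110 and 0.0170% (3.84, adjusted p = 9.03e-06). Igkv9-123, also on the minus strand, took 0.0704, 0.0586 and 0.0545% against 0.00950, 0.0181 and 0.00937% (2.36, adjusted p = 0.000666). The groups of each of these genes were separate. With distinct junctions counted once the 4 values were 1.03, 0.60, 1.77 and 1.18, in the same order and all called. Igkv9-124 and Igkv9-129 hold the same 52 bases shortly before the joining end and Igkv9-120 differs from Igkv9-124 at 1. The authors' alignment could thus divide reads between these genes, and their separate values are uncertain.

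Igkv2-137 again stood higher in BM PreB, at 1.59% ± 0.0993 against 0.290% in untreated libraries (log2 fold change 2.48, adjusted p = 2.12e-06). With distinct junctions counted once it was at 1.05, still called. In IAADox libraries it took 0.241 and 0.129%, overlapping the untreated values of 0.367, 0.282 and 0.222% (-0.74, adjusted p = 0.164). The site at 67518923 was also higher in BM PreB than in the untreated values of 0.289, 0.266 and 0.168% (1.17, adjusted p = 0.00308), but not called with distinct junctions (0.34, adjusted p = 0.0776). Igkv14-111 was lower in BM PreB than in untreated libraries, at 2.14% against 2.64% (-0.29, adjusted p = 0.0286), a call lost without BM PreB 1 or 3 and when distinct junctions were counted once (-0.08, adjusted p = 0.584). The other 3 segments that were lower have no annotated gene and few junctions. They held 0 against 33 at 68152496 (at least 2.21-fold lower), 0 against 29 at 68150484 (at least 1.99-fold lower) and 2 against 91 at 68161256 (pooled ratio 0.110, interval 0.0131 to 0.408). Of these, 68152496 and 68150484 lost their call without any 1 BM PreB library and without untreated 3, 68152496 also without untreated 1. All 3 met the minimum of junctions for testing only through the deeper untreated libraries. The number of lower calls thus depends on that minimum. With at least 100 junctions per segment the distal calls were 16 higher and 1 lower (51.5%, against 63.3% of all segments). With at least 1 junction they were 85 higher and 7 lower (58.97%, against 60.6%), and the median log2 fold change of all segments was 1.60. There the 0.5 that voom adds to each count weighs more in the shallower BM PreB libraries, so directions of near-empty segments cannot be read.

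**Figure D5:**
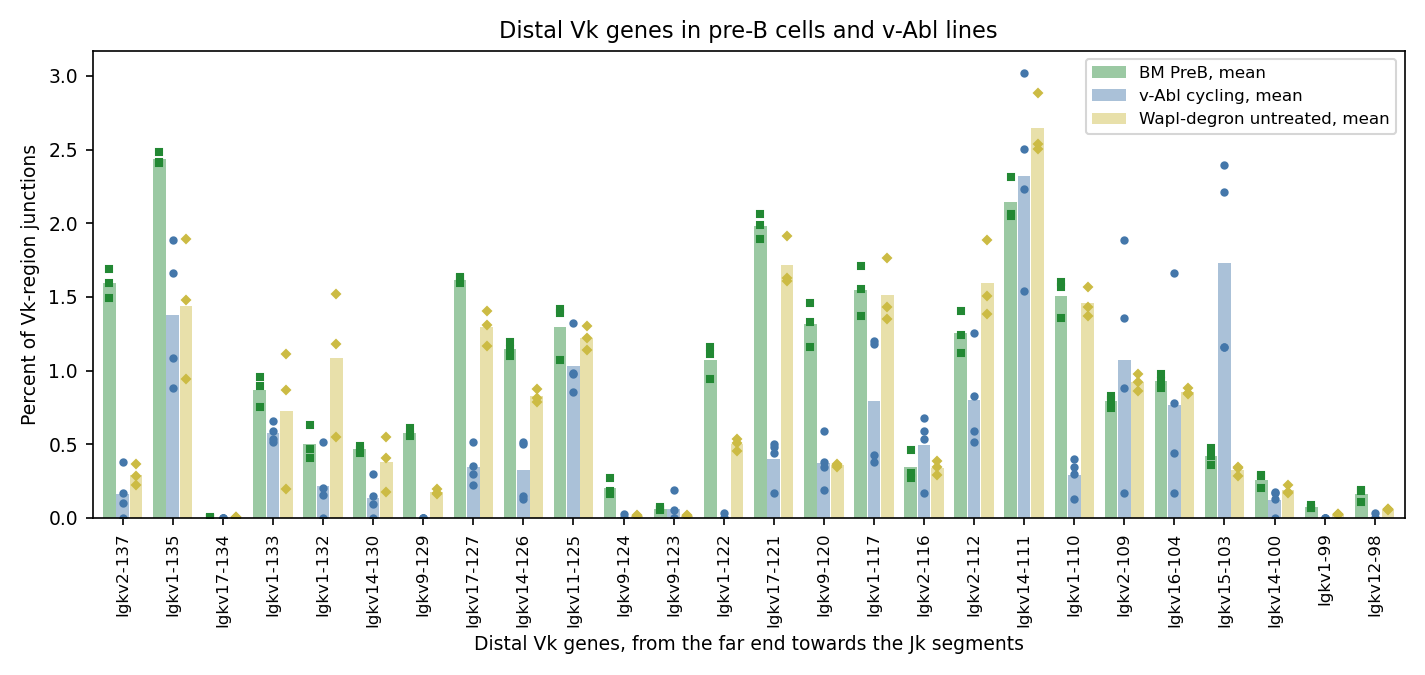
Percent of Vk junctions (vertical axis, linear) taken by the same 26 distal genes in BM PreB, v-Abl cycling and untreated Wapl-degron cells; a bar is a group mean and a point a library. Igkv2-137 lies at 1.49 to 1.69% in BM PreB, and Igkv15-103 lies higher in v-Abl cycling, at 1.16 to 2.40%.

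At the inner end of the distal Vk region use was low. The last segment inside, Igkv12-98, lies 33.8 kb from the edge and took 0.160% ± 0.0443 in BM PreB and 0.0571% in untreated libraries. The first outside, Gm16637, lies 26.96 kb beyond it and took 0.720% ± 0.421 in v-Abl cycling, 0.618% in BM PreB, 0.228% in untreated and 0.694% in IAADox libraries. Among the 54 distal segments 18, of which 9 are genes, have a copy that differs at 3 or fewer of the 52 bases compared, all shortly before the joining end. These 18 hold 37.0% of the junctions of the 54. Igkv1-135 and Igkv1-133 are such a pair, at 3 of 52.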

How the data were processed

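The lists were deposited by the authors, aligned to mm9 per the labels, with Bowtie2 per the submitters' processing notes (version and filters are not given in the sources used here). The deposited values are positions and strands of single junctions, 1 line per read, in no normalized unit. Each line was counted. Genes came from GENCODE annotation of NCBIM37, the build mm9. Shares were compared with exact two-sided permutation tests over libraries (scipy 1.17.1), adjusted over 10 tests by Benjamini-Hochberg. Segments with at least 10 junctions were tested over the whole Vk region with limma 3.58.1 (voom, Vk junctions as library size, adjusted p under 0.05). On simulated counts with 40 segments changed by 4-fold, 77.5% of the 40 were recovered in IAADox against untreated (157 segments tested), 92.5% in BM PreB against v-Abl cycling (126 tested) and 80% in BM PreB against untreated (167 tested).

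The members, gene lists and tests were chosen with earlier results of these data known. Named are the 6 most used distal segments of each group, up to 4 called segments with the largest change in each direction of each comparison whose libraries do not overlap, the 3 most used sites without a gene and the segments at the inner edge; other genes are given by family. Alternatives covered distinct junctions, aligned prey length, scaling, count minimum, segment gap, boundary, the model, the replicate block and each library left out.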

Additional observations from a re-analysis of the deposited data

Results flagged for a closer look

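Of 31 values tested in the 4 v-Abl cycling libraries, 4 had 1 library apart from the other 3, and all 4 are segment shares. Each is a single junction in 1 library and 0 in the others: Igkv1-122, Igkv12-98 and the unannotated site at 68161256, each at 0.0314% of Vk junctions in library 1, and Igkv9-124 at 0.0252% in library 3. At these depths 1 junction and none cannot be told apart.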

How the results depend on the processing

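The distal share kept its direction in all 3 comparisons under every alternative run, which include distinct junctions, prey length, the boundary moved by 100 kb either way and percent of all junctions (15.4, 17.4 and 6.24 points). Leaving out 1 library gave 19.3 to 20.6 points for IAADox against untreated, 11.2 to 11.995 for BM PreB against v-Abl cycling and 4.95 to 5.91 for BM PreB against untreated. Plus-strand differences then ranged from 0.336 to 0.369, 0.0513 to 0.828 and 0.667 to 0.851 points, and annotated shares from 0.0456 to 0.483, 1.70 to 3.33 and -2.63 to -1.81. Without 1 untreated library, IAADox against untreated called 20 to 23 distal segments (38.5 to 44.2%, against 45.2 to 52.2% of all segments). The other comparisons called 13 to 20 (37.1 to 57.1%, against 50 to 61.9%) and 16 to 24 (30.2 to 45.3%, against 43.7 to 56.3%). Distinct junctions turned the plus-strand difference of BM PreB and untreated to -0.548 (exact p = 0.2) and the annotated share to -0.575 against v-Abl cycling (exact p = 0.8) and 2.94 against untreated (exact p = 0.1). At least 50 aligned prey bases turned the annotated share of IAADox and untreated to -0.473 (exact p = 0.4). At least 100 bases, added after seeing the data, turned BM PreB against v-Abl cycling for Igkv12-98 (-1.45), Igkv9-124 (-0.47), Igkv1-132 and Igkv14-130. All of these were called with every read. It also turned the site 68425090 (-1.92), which was not, and Igkv17-127 against untreated (-0.56). At that minimum v-Abl cycling libraries held 44 to 320 Vk junctions, and voom adds 0.5 to each count. An empty segment there can then exceed the BM PreB share, so the signs against v-Abl cycling cannot be read as reversals. Of called segments, a minimum of 1 junction gave 95 (91 higher, 4 lower), 39 (15 higher, 24 lower) and 92 (85 higher, 7 lower), or 58.6, 67.2 and 58.97% of the distal segments then tested against 59.3, 71.7 and 60.6% of all, a quasi-binomial model 9, 11 (8 higher, 3 lower) and 14 (all higher in the first and last), and all junctions as library size 27 (26 higher, 1 lower) against v-Abl cycling, in the same order of comparisons. With a minimum of 1 junction the median log2 fold change of all segments was 1.88, -0.57 and 1.60. The 0.5 added to each count weighs more in the shallower group, so directions of near-empty segments cannot be read there. The causes of the other changes were not tested. Deviations of same-numbered libraries correlated between -0.188 and 0.122. Differently numbered libraries were not compared, so these values cannot decide whether shared numbers pair the groups. With the library number as a replicate block shares differed by 19.5 (exact p = 0.5), 11.5 (exact p = 0.25) and 5.39 points (exact p = 0.25). The distal segments called were then 22, 18 and 26 (42.3, 51.4 and 49.1%, against 51.6, 56.3 and 59.3% of all segments). TMM moved the median log2 fold change of all segments by 0.14, -0.18 and -0.29, and all junctions by 1.05 against v-Abl cycling; every called segment kept its direction under both. Sequencing run as a block was not run, since the Wapl-degron libraries lie in 1 run and the other groups in separate ones. Depth limits v-Abl cycling most.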

Other observations

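Inside the annotated span of plus-strand genes, away from the coding end, 3 clusters of at least 10 junctions were read on the plus strand. They hold the 51 plus-strand junctions given above, and smaller clusters were not counted. They lay in Igkv1-122 (10 junctions, 3 libraries), Igkv1-117 (17 junctions, 5 libraries) and Igkv1-110 (24 junctions, 6 libraries), each 318 bases from the coding end of the gene. Exon and intron were not told apart. Each cluster has a copy among the others that differs at 1 of 52 bases shortly before the joining end, so the split of reads between the 3 genes is uncertain. These junctions were singled out after their values were seen. In 50 of them bait and prey shared the same 9 bases, GTTTCAGCT, and the most frequent bait end in each cluster lay 13 bases before the end of Igkj5, as in this read of Igkv1-110 with the shared bases in capitals.
Igkv1-110: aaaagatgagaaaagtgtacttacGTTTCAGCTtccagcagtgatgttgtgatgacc
All 51 had at least 9 shared bases, against 0.782% of the 117703 minus-strand distal junctions. By group they were 40 of 79937 distal junctions in untreated (0.05004%), 10 of 17147 in IAADox (0.0583%), 1 of 20053 in BM PreB (0.00499%) and 0 of 1271 in v-Abl cycling libraries, a count that allows a share of up to 0.236%.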
